A study of Mus musculus with 46 samples.

Results

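Microglia of newborn mice were compared with microglia of adult mice, in control animals only. The 10 libraries were those labelled adult control (n = 5) and postnatal day 0 control (P0, n = 5) in the developmental table of the series, of 46 libraries in all. They were chosen by these labels and not by any measured value. All 10 came from mice labelled Dicerfl/fl (Control), in which the Dicer1 gene carries loxP sites and the labels name no Cre recombinase, so the flanked allele is shared by both ages. The adults were 6 to 8 weeks old. Cells were freshly isolated from brain and sorted, at both ages, as CD45intCD11b+F4/80+Ly6C-Ly6G-. The same table held 4 control libraries of embryonic day 14 (E14), sorted with another gate (CD45+CD11b+F4/80hiLy6C-Ly6G-), and 2 Dicer-deficient P0 libraries. The E14 libraries entered the fit and are given beside some results, and the Dicer-deficient libraries were not compared here. RNA was captured with oligo(dT) beads and sequenced in bulk. The labels do not say whether each library came from a separate animal, so the tests speak of the spread among libraries, part of which may be technical.

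Microglia are the resident macrophages of the brain. They descend from yolk sac progenitors that enter the brain in the embryo, divide there, and persist without a steady supply from blood. Around birth many are rounded, phagocytic and dividing, and in the adult they are ramified cells that survey the tissue and divide rarely. Their survival depends on the receptor Csf1r, and signalling by transforming growth factor beta (TGF-beta) is known to be needed for their adult gene programme. In bulk RNA, fewer cells of a type and less RNA per cell cannot be told apart.

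The values are read counts per gene scaled by 1 factor per library, called levels below. Recovered totals were 1751643 to 2575217 reads in the adult libraries, 1274963 to 3105566 at P0 and 1917209 to 3460338 at E14. The sort was checked against microglial markers. Csf1r was at 14007, 9296, 10562, 10692 and 9995 in P0 libraries 1 to 5 and at 14715, 14649, 16502, 16876 and 16766 in adult libraries 1 to 5, and Tmem119, P2ry12, Siglech and Sall1 were detected in all 10. Cx3cr1, the fractalkine receptor and a defining microglial marker, stood apart. Its level was 5801, 4836, 4244, 4601 and 3744 at P0 and 7454, 490, 8687, 1188 and 940 in the adult libraries. Adult libraries 1 and 3 were thus above every P0 library and adult libraries 2, 4 and 5 were below every one. The 3 low libraries had Ddx3y, a Y-linked gene, at 122, 249 and 242, and the 2 high libraries had it at 2.15 and 8.63 with Xist at 366 and 663. At P0 the libraries with high Ddx3y, 3 and 5, had the lowest Cx3cr1, without a gap of the adult size. Other animals of the series carry Cx3cr1Cre or Cx3cr1CreER. The labels name no Cx3cr1 allele for the adult controls, and what sets their Cx3cr1 apart cannot be told from the labels. P0 library 4 also stood a little apart. Of the 15 genes named below as highest in adults, it had the highest P0 level for 11, and its Mki67 was the lowest of the P0 libraries. Adult libraries 1 and 2 differed from adult libraries 3 to 5 in several lists, which is given beside those lists.

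Of 24421 genes in the table, 12357 had a level of at least 1 in at least 5 of the 10 libraries and were tested. A gene was called when its adjusted p was under 0.05 in limma's moderated test on log2(level + 1), with Benjamini-Hochberg adjustment over all genes tested. Of the genes tested 51.5% were called, 2962 higher in adults (24.0%) and 3397 lower (27.5%). Counts of called list members below are to be read beside these shares. In 15.6% of the genes every adult library was above every P0 library, and in 18.6% every adult library was below. The median log2 fold change over all genes was -0.04. Without P0 library 4 the count was 6143 called genes, and with adult libraries 1 and 3 alone it was 4893, against 6359 with all. Fold changes below are adult minus P0 on the log2(level + 1) scale with their standard error (SE), which understates changes of low genes. The scatter of fold change against level places the mitotic genes low and most homeostatic genes high.

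**Figure D1:**
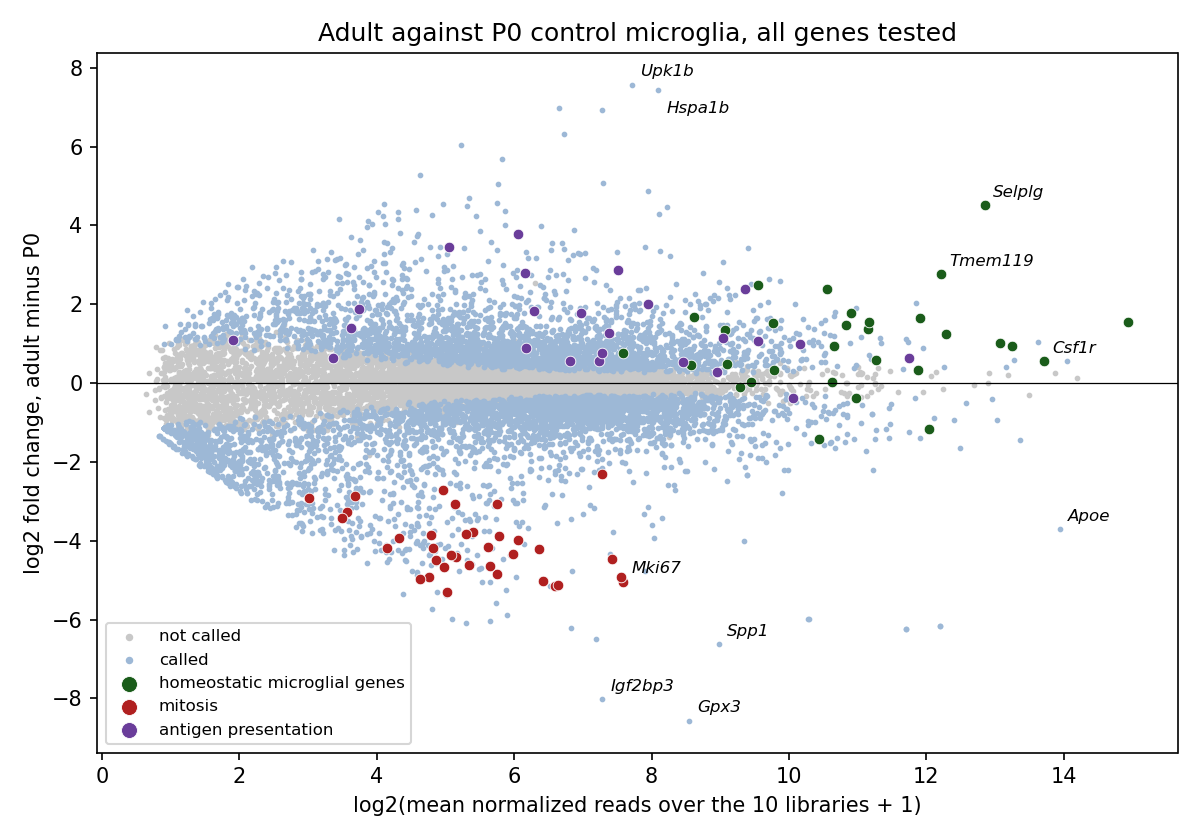
Each point is 1 of the 12357 genes tested. The x axis is the log2 of its mean level over the 10 libraries plus 1 and the y axis its log2 fold change, adult minus P0; pale blue points are called, grey points are not, and 3 gene lists are coloured. Gpx3 and Igf2bp3 stand lowest at -8.57 and -8.01, and Upk1b highest at 7.57.

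Genes of the mature, surveying microglial state were mostly higher in adults. Of 30 homeostatic genes tested, 22 rose and 1 fell, with a median of 0.97 against -0.04 over all genes. The number that fell was 3 without adult library 1. Tmem119, a membrane protein used to mark microglia, was at 1630, 988, 1083, 1240 and 1127 in the P0 libraries and 9772, 10205, 6895, 7205 and 7182 in the adults. The adult libraries lay well above the P0 libraries with no overlap, and the log2 fold change was 2.77, SE 0.18, adjusted p = 1.12e-10. Selplg encodes a ligand of selectins, and its level was 675, 426, 512, 1050 and 551 at P0 and 15898, 17295, 11643, 12847 and 12786 in adults. Every adult library was more than 10 times above the highest P0 library, with a log2 fold change of 4.51, SE 0.19, adjusted p = 5.63e-13. P2ry12, the ADP receptor by which microglial processes sense nucleotides, was at 2146, 2632, 3215, 4070 and 2823 at P0 and 5769, 6721, 8550, 7251 and 6762 in adults. The groups did not overlap, and the log2 fold change was smaller, 1.26, SE 0.17, adjusted p = 3.45e-06.

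Adgrg1, an adhesion G protein-coupled receptor, rose from 207–253 to 1002–1388 (log2 fold change 2.48; ranges here and below are the lowest and highest library). Slco2b1, an organic anion transporter, rose from 722–1024 to 2826–3287 (1.78). Siglech, a sialic acid-binding lectin, rose by 1.37. Csf1r itself rose by 0.56, SE 0.17, adjusted p = 0.00817, which lost its call with adult libraries 1 and 3 alone (0.53, adjusted p = 0.0551) and with libraries 1 and 2 alone. Over all alternatives its adjusted p ran from 1.67e-05 to 0.0839. Crybb1, a crystallin gene, was the member that fell, from 1579–2595 at P0 to 533–1159 in adults (-1.41). Trem2, a lipid-sensing receptor, had log2 fold change 0.33 (adjusted p = 0.0945) and passed the test without adult library 3 (0.42) and with adults 1 and 2 alone (0.66). Fcrls (-0.38) and Mef2c (-0.09) were not called. Fcrls passed the test as lower without adult library 1 (-0.68, adjusted p = 0.0481), and Mef2c as lower with adults 1 and 2 alone (-0.56, adjusted p = 0.0103). Adult libraries 2 and 5 had Fcrls at 724 and 764 beside 2242 to 3640 in the other adults. For Cx3cr1 the log2 fold change was -1.17 (adjusted p = 0.0771), and with adult libraries 1 and 3 alone it was 0.81. With sex, read from Xist and Y-linked genes, as a covariate it was -0.91 (adjusted p = 0.0927), without adult library 2 it was -0.66, and edgeR (TMM) gave -0.31 and DESeq2 -0.32. It passed the test without adult library 1 (-1.64, adjusted p = 0.00935), without adult library 3 (-1.69, adjusted p = 0.00515) and with adults 3 to 5 alone (-1.11, adjusted p = 0.0402), so no direction is given for it. Dicer1, whose allele is flanked in these mice, was at 88.7, 74.1, 57.8, 72.6 and 88.7 at P0 and 82.6, 57, 85.4, 107 and 109 in adults. Its groups overlapped and it was not called (0.18, adjusted p = 0.376), but it passed the test with adults 3 to 5 alone (0.40, adjusted p = 0.044).

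**Figure D2:**
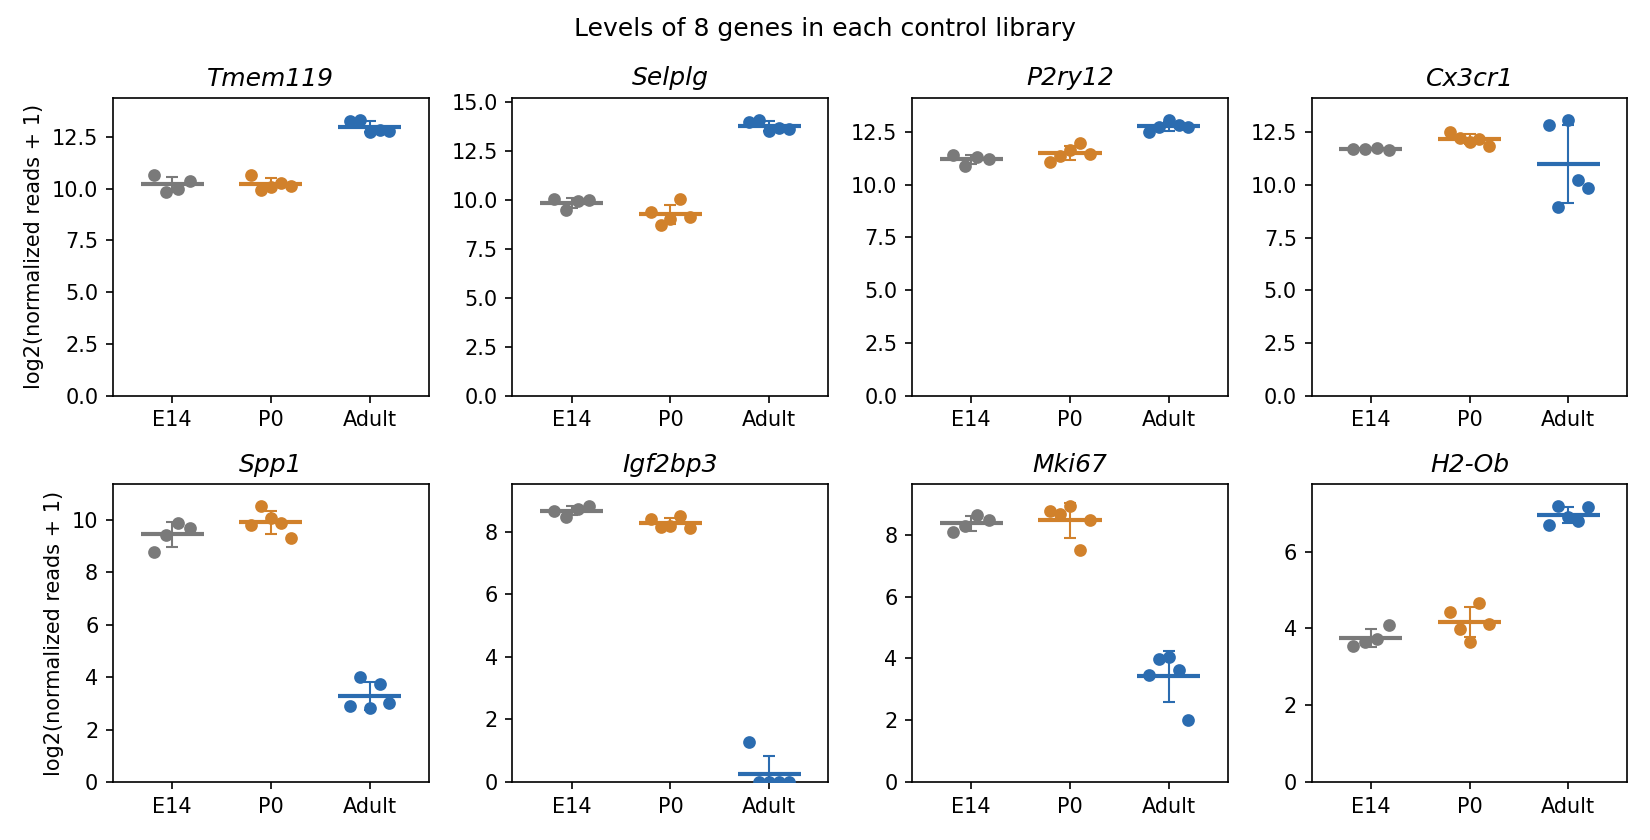
Points are single libraries, horizontal bars group means and error bars 1 SD of log2(level + 1), for E14 (n = 4), P0 (n = 5) and adult (n = 5) controls. Tmem119, Selplg, P2ry12 and H2-Ob are higher in all 5 adults than in all P0 libraries, Spp1, Igf2bp3 and Mki67 are lower, and the 5 adults split for Cx3cr1.

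Of 20 transcription factors of microglia tested, 11 rose and 4 fell, and the number that fell was 2 without adult library 1, adult library 2 or P0 library 5. Sall1, a microglial identity factor, was at 532, 420, 446, 503 and 375 at P0 and 619, 585, 671, 684 and 617 in adults, a small change without overlap (0.49, SE 0.11, adjusted p = 0.000805). Its relative Sall3 rose by 1.17, and Cebpa, a myeloid factor, by 1.30. The members that fell were Spi1 (PU.1, a core factor of the myeloid lineage; -0.37, adjusted p = 0.0296) and 3 that also stand on the list of immediate early and dissociation genes described below, Klf2 (-1.43), Nr4a1 (-2.36) and Egr1 (-1.40). Spi1 and Egr1 lost their calls in several fits with a library left out, Spi1 without adult library 1 or 2 or P0 library 1 or 5, and Egr1 without adult library 1 or 2 or P0 library 2, 3, 4 or 5 and with edgeR and DESeq2. Spi1 and Egr1 also lost their calls with adults 3 to 5 alone and with adults 1 and 3 alone. The same held with P0 libraries 1 to 3 alone and with P0 libraries 4 and 5 alone. Mef2a rose by 1.14, and Smad3, which carries TGF-beta signals to the nucleus, by 1.14. In the TGF-beta list 13 of 24 tested members rose and 2 fell (median 0.45). The type I receptor Tgfbr1 was at 1026, 1029, 1296, 1307 and 1181 at P0 and 3297, 3340, 3473, 3400 and 3617 in adults, far apart for groups of such narrow spread (1.56, SE 0.12, adjusted p = 2.54e-09). The co-receptor Eng rose by 1.84, the signal carrier Smad1 by 1.04 and the inhibitory Smad7 by 1.16. Bambi, a decoy receptor of low level here (5.82 to 17.5 at P0), fell by 1.14, and that call was lost with P0 libraries 1 to 3 alone and with adults 1 and 3 alone. In the colony-stimulating factor list 3 of 9 rose and 4 fell, against 24.0% and 27.5% of all genes. Csf3r, the receptor of granulocyte colony-stimulating factor, rose from 92.2–185 to 775–987 (2.57), and Csf2ra by 0.68. Csf1, a ligand of Csf1r, went the other way, from 381, 391, 530, 416 and 481 at P0 to 46.7, 64.9, 50, 66 and 26.2 in adults. Every adult library was far below every P0 library (-3.15, SE 0.19, adjusted p = 7.93e-11). Dok2, an adaptor below growth factor receptors, fell from 18.3–46.5 to 0–4.39.

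Genes of the rounded perinatal microglia, many of which are also known from microglia in diseased brain, fell. Of 29 such genes tested 20 were lower in adults and 2 higher, with a median of -1.63. Markers of border macrophages, a neighbouring cell type, also fell (10 of 14, summed level 1803 to 2297 at P0 and 567 to 809 in adults), and their part in the falls of this list was not tested. Spp1 (osteopontin, a secreted matrix protein) was at 881, 1464, 1076, 946 and 631 at P0 and 6.46, 14.9, 6.04, 12.2 and 7.06 in adults. The loss was near complete in all 5 adults, with a log2 fold change of -6.63, SE 0.25, adjusted p = 1.31e-13. Igf1, a growth factor for neurons and oligodendrocytes, was at 221, 222, 240, 278 and 154 at P0 and 2.15, 0.877, 0.863, 6.09 and 2.02 in adults, where 4 of 5 libraries held 1 to 3 reads. Its log2 fold change was -6.21, SE 0.29, adjusted p = 1.31e-12. Apoe, which carries lipids, was at 38767, 24183, 27154, 26777 and 29158 at P0 and 1428, 4226, 2093, 1611 and 2527 in adults. It remained detectable in every adult library but fell by 3.71 (SE 0.24, adjusted p = 1.42e-10). The lipoprotein lipase gene Lpl fell from 973–1652 to 40.2–120 (-4.01). The number that rose was 4 without P0 library 4. Of this list Cst7, a cystatin, rose, from 19–33 to 46.4–92.1 (1.16).

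Several of the genes with the largest rises and falls had levels near 0 at one age. Upk1b, a uroplakin, was at 0, 1.24, 0, 5.31 and 2.34 at P0 and 550, 339, 430, 417 and 342 in adults. P0 library 4 was the highest of its group and still far below every adult (7.57, SE 0.41, adjusted p = 1.33e-11). Thrsp, linked to fat synthesis, reached 153 to 267 in adults and at most 4.72 at P0. Mlph, a melanosome transport linker, and Tgm2, a transglutaminase, were at 120 to 572 and 123 to 318 in adults and at most 13 and 9.44 at P0. In each case P0 library 4 held that highest value. Klk8, a secreted serine protease, rose from 5.82–11.2 to 200–433 (5.09), and Ebf3, a transcription factor, by 5.06. Csmd3, Lrba, Tmem204, Lrrc3 and Eps8l1 rose by 5.69, 4.47, 4.38, 4.28 and 4.01. Tnfsf13b, which encodes the B cell survival factor BAFF, rose from 1.87–4.72 to 77.5–140 (4.57).

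Among the falls, Gpx3, a secreted glutathione peroxidase, was at 983, 731, 679, 645 and 687 at P0 and 1.44, 0.877, 0, 1.02 and 2.02 in adults. That is at most a few reads per adult library against a high level at birth (-8.57, SE 0.23, adjusted p = 4.41e-16). Igf2bp3, an oncofetal RNA-binding protein, was at 337, 280, 290, 360 and 277 at P0 and 1.44, 0, 0, 0 and 0 in adults. In 4 of 5 adult libraries no read was counted, and the log2 fold change was -8.01, SE 0.22, adjusted p = 4.41e-16. Apoc1, an apolipoprotein, fell from 174–352 to 1.02–4.03, Cyr61, a matricellular protein, from 58.2–147 to 0–4.03, and Gas7 from 80.6–133 to 0–5.26.

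Every mitotic gene on the list fell. All 35 were called lower and in all 35 the groups did not overlap, with a median of -4.21. This count was 35 under every alternative tried. Mki67, a coat protein of mitotic chromosomes used to mark dividing cells, was at 430, 406, 483, 181 and 355 at P0 and 10, 14.9, 15.5, 11.2 and 3.02 in adults. The adult libraries were not at 0, and P0 library 4 was the lowest of its group (-5.04, SE 0.31, adjusted p = 7.04e-11). Top2a, the topoisomerase that untangles chromosomes, was at 467, 342, 402, 241 and 355 at P0 and 15.8, 13.2, 9.49, 11.2 and 6.05 in adults (-4.93, SE 0.20, adjusted p = 3.68e-13). Cdk1, the kinase that drives entry into mitosis, was at 333, 306, 347, 278 and 370 at P0 and 13.6, 23.7, 17.3, 8.13 and 11.1 in adults, again with no overlap (-4.45, SE 0.19, adjusted p = 5.63e-13). Tpx2, which builds the spindle, fell by 4.65, the kinetochore protein Ndc80 by 3.77, and Cdca3 and Birc5 (survivin) by 5.14 each. Incenp, of the chromosomal passenger complex with Birc5, fell least among these, by 2.31, and kept 44.7 to 62 in adults.

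Promoters of mitotic genes are known to carry CCAAT boxes, bound by NF-Y, and the cell cycle homology region (CHR), by which the DREAM and MMB complexes repress and activate them. The windows below run from 250 bases before to 50 after the transcription start in RefSeq (GRCm38.p6), written 5′ to 3′ on the gene's strand, with TTTGAA (the CHR) and CCAAT in capitals, each searched on both strands. They are shown because the whole list moved together. Motifs and genes were chosen after the values were seen. No match of one motif overlapped a match of another.
Mki67, chr7:135716330-135716629 (minus strand): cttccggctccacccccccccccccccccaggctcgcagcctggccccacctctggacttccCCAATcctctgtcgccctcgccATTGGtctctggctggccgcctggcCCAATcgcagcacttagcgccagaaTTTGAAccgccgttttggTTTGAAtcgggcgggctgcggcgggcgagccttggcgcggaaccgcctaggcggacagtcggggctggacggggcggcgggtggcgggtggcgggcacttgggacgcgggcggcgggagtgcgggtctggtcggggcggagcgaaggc
Top2a, chr11:99024140-99024439 (minus strand): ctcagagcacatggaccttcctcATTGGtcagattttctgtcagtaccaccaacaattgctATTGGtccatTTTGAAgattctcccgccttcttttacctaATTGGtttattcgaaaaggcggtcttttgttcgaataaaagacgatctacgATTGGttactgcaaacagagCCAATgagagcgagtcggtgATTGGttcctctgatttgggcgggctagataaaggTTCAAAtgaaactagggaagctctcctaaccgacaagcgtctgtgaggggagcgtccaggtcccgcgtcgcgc
Cdk1, chr10:69352863-69353162 (minus strand): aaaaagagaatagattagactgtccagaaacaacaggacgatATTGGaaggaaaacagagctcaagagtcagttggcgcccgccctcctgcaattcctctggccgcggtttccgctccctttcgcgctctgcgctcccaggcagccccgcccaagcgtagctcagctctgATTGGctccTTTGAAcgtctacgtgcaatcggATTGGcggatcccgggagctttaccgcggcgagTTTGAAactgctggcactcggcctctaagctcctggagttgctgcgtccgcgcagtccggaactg
Cdca3, chr6:124829926-124830225 (plus strand): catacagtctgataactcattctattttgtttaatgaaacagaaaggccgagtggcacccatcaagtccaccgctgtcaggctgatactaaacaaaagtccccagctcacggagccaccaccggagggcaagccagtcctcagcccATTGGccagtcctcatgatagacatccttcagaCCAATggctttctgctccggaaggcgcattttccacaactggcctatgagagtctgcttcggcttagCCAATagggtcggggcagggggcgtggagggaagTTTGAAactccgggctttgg
TTTGAA stood in the windows of 20 of the 27 mitotic genes found in the RefSeq table (74.1%), against 20.2% of the 27025 genes in it. CCAAT stood in 21 of 27 (77.8%) against 41.1%, and both in 18 (66.7%) against 7.97%. CCAAT was also common in other lists, in 21 of 33 DNA replication windows (63.6%) and 13 of 20 homeostatic windows (65%). Its share is thus not particular to genes that fell. Ndc80 had a TTTGAA and no CCAAT, and Birc5 neither, in these windows, although both genes fell like those shown. A match describes the letters and is no evidence of binding.

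DNA replication genes also fell, to a smaller extent. Of 41 tested 39 were lower and 0 higher, with a median of -2.26. Of the genes of the MCM helicase that opens DNA, Mcm5 was at 279, 271, 262, 158 and 313 at P0 and 23, 23.7, 29.3, 22.3 and 40.3 in adults. All adult libraries kept some reads while lying far below P0 (-3.16, SE 0.18, adjusted p = 3.01e-11). Mcm6 fell by 3.10, Mcm2 by 3.52, Gins2 of the same helicase complex by 2.97, and the thymidine kinase Tk1 by 2.86. The members not called were Gins3 (-0.49, adjusted p = 0.0747, called without P0 library 4) and Gins4 (-0.03, adjusted p = 0.87). Replication genes are classically bound by E2F factors, and the 2 windows that follow show in capitals the E2F-type letters TTTCCCGC or TTTGGCGC, searched on both strands and chosen after the values were seen.
Mcm6, chr1:128359656-128359955 (minus strand): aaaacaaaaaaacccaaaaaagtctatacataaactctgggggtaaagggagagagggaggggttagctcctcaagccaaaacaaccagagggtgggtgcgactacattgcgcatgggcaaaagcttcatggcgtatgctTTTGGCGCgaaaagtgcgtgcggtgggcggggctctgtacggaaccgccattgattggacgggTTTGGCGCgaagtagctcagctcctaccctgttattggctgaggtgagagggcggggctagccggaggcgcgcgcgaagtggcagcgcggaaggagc
Mcm5, chr8:75109259-75109558 (plus strand): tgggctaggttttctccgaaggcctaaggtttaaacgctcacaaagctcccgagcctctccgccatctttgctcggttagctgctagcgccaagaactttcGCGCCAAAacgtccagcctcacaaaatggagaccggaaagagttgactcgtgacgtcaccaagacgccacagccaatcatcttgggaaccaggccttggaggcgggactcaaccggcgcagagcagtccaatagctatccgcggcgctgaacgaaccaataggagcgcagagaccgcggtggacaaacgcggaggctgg
Either E2F form stood in 11 of 33 replication windows (33.3%) against 1.8% of all genes, and in 0 of the 27 mitotic windows. The windows of Mcm2 and Tk1 held neither form, although both genes fell like those shown. TTTGAA stood in 5 of the 33 replication windows (15.2%).

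Regulators of the G1 phase fell more than they rose. Of 26 tested 14 were lower, above the 27.5% of all genes, and 7 higher, near the 24.0% of all genes. Ccne1 (cyclin E1, which starts S phase) fell from 35.4–67.2 to 1.02–3.45 (-4.09). E2f1 and E2f8 fell by 3.12 and 3.44, Cdk4 by 1.28 and the inhibitor Cdkn2c by 2.11. The inhibitor Cdkn1c (p57) rose from 0–12.4 to 28.4–52.6 (2.90), and Cdkn2b (p15) from 0–1.52 to 2.03–6.05 (1.75), the latter at a few reads per library. Rb1, the retinoblastoma protein gene, rose by 0.57 and E2f3 by 0.72. The 7 higher members became 4 without P0 library 4. Of 30 genes of DNA repair and damage checkpoints 22 fell and 2 rose. Ung, which removes uracil from DNA, fell by 3.87, the checkpoint kinase Chek1 by 3.55, the Fanconi gene Fanca by 4.29, Rad54l of homologous recombination by 3.42 and Uhrf1, which maintains DNA methylation, by 3.80. The nuclease gene Dclre1b rose from 24.5–31.1 to 41.4–63.9 (0.93). Replication-type histones, most of whose transcripts lack a poly(A) tail and are poorly caught by oligo(dT), gave 10 lower and 1 higher of 28 tested. Hist1h2bc fell from 304–654 to 102–283. With adults 3 to 5 alone 6 histone genes were lower and 4 higher, and the number higher was 3 without adult library 1 and 3 without P0 library 1.

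Of 18 oncofetal genes and known let-7 targets tested, 8 fell and 3 rose, against 27.5% and 24.0% of all genes. Of the 3 that rose, 2 did so at least 2-fold. The summed level of the list was higher in adults (4364 to 4675) than at P0 (2569 to 3056). Its mean log2(level + 1) relative to P0 was -1.06, so the direction depends on the weight given to abundant members. The members named in this paragraph are among those that fell, and the 3 that rose are not named in it. H19, an imprinted growth-restraining RNA, was at 20.4, 17.4, 10.6, 29.5 and 16.3 at P0 and at 0 in all 5 adult libraries. Lin28b, which blocks let-7 maturation, and Igf2bp1 were also at 0 in all adults, from 1.45 to 11.8 and 3.04 to 6.22 at P0. A count of 0 allows up to 3 reads per library, a level of 2.15 to 3.05 in the adults, so H19 was at least 7.01-fold lower, Lin28b at least 3.19-fold and Igf2bp1 at least 1.62-fold. The proto-oncogene Nras fell by 1.09 and Arid3a by 1.06.

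Ribosomal protein and respiratory chain genes were lower in adults. Of 54 cytosolic ribosomal protein genes 32 fell and 0 rose (median -0.73). Rpl32 was at 3536, 3429, 3143, 3431 and 3549 at P0 and 960, 1119, 1005, 1047 and 1026 in adults, with no overlap (-1.73, SE 0.13, adjusted p = 9.13e-10), and Rps2 fell by 2.47. The mean over the list, relative to P0, was -1.15 and -1.0 in adult libraries 1 and 2 and -0.59 to -0.65 in libraries 3 to 5. With adults 3 to 5 alone 29 were lower and 6 higher, and with adults 1 and 2 alone 44 were lower. Ribosomal protein genes have many processed pseudogenes, with which the counting may have split reads. Of 34 respiratory chain subunits 29 fell and 0 rose (median -0.80), among them Cox4i1 from 2254–2723 to 626–1068 (-1.64) and Cox6c (-1.78). Glycolysis genes showed no common direction, 8 of 22 higher and 6 lower, against 24.0% and 27.5% of all genes. Hexokinases Hk1 and Hk2 rose by 1.68 and 0.59 and the muscle-type enolase Eno3 by 1.75. Ldha, Pkm and Gpi1 fell by 1.33, 1.33 and 0.98.

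**Figure D3:**
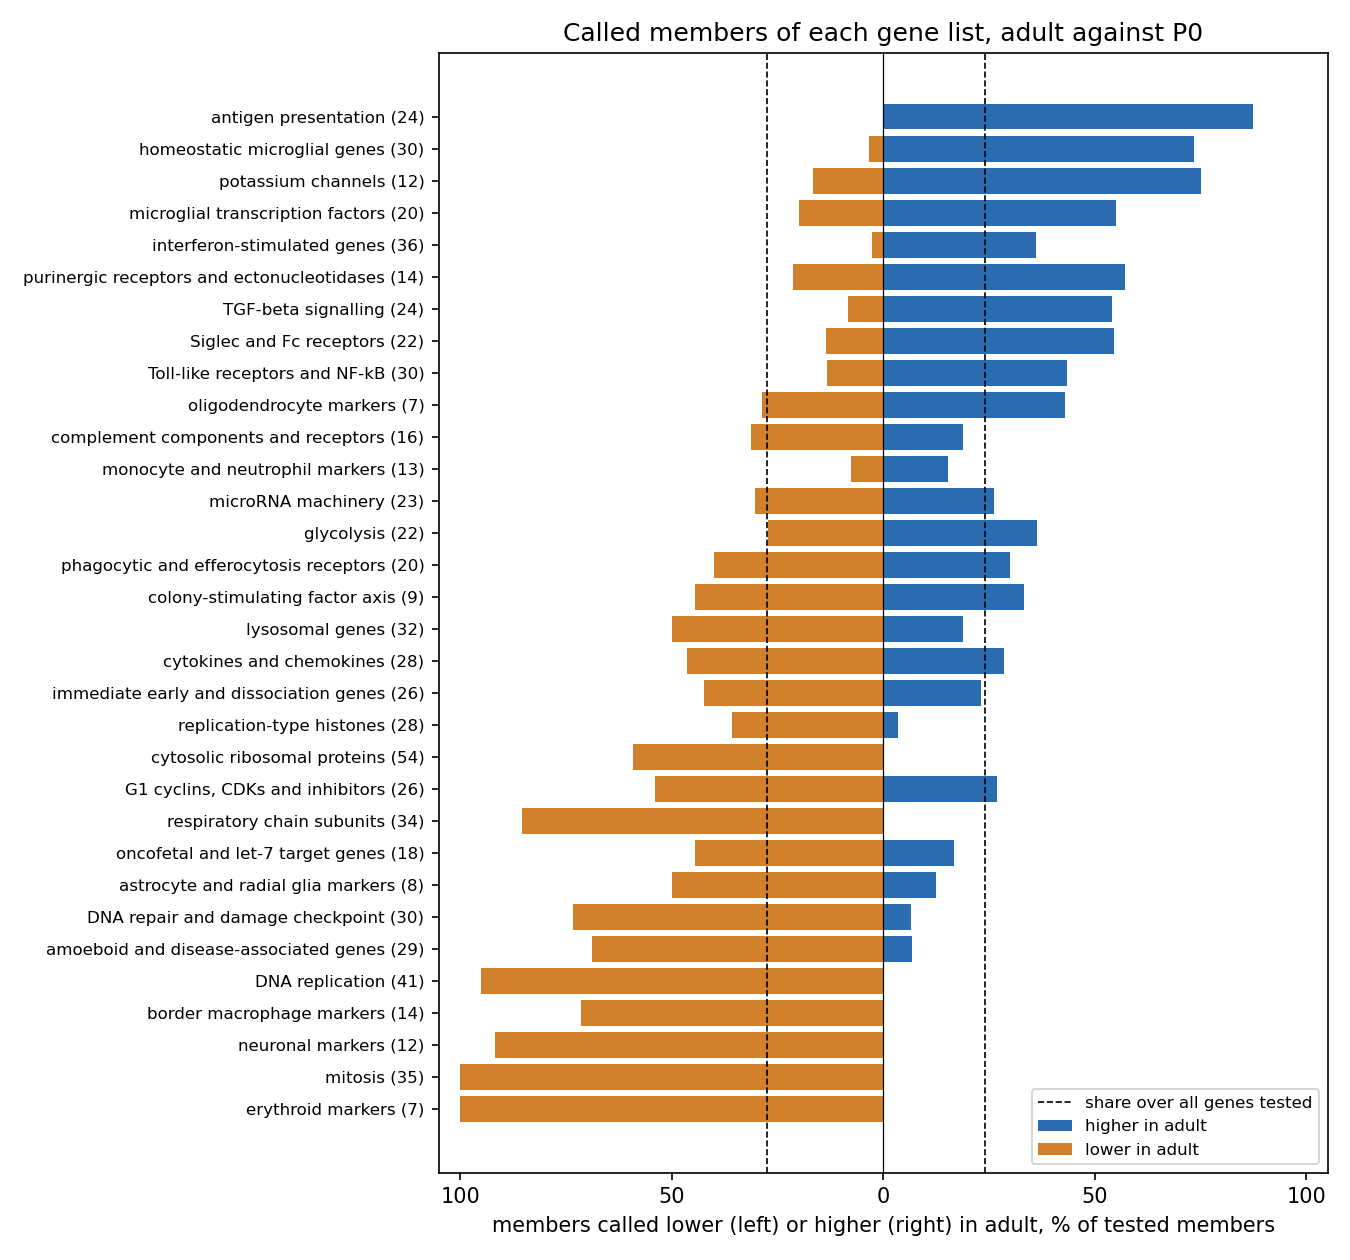
Bars give the percentage of each list's tested members (number in parentheses) called lower, to the left, or higher, to the right, in adults; dashed lines mark the shares over all genes tested, 27.5% lower and 24.0% higher. Lists of at least 7 tested members are shown, ordered by median fold change. Mitosis (35 of 35 lower) and antigen presentation (21 of 24 higher) lie at opposite ends among lists not made of markers of other cells.

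Antigen presentation genes rose in the largest share of any list tested. Of 24 genes tested 21 rose and 0 fell, with a median of 1.13. H2-Ob, a subunit of the modulator H2-O of class II peptide loading, was at 20.4, 14.9, 11.4, 24.2 and 16.3 at P0 and 103, 144, 118, 111 and 143 in adults. The groups stood clear of each other (2.79, SE 0.21, adjusted p = 1.06e-09), and its partner H2-Oa rose by 1.79. H2-DMa and H2-DMb1, the peptide exchange factor, rose by 2.38 and 2.01. The classical class II genes varied more between libraries. H2-Aa was at 8.72, 4.98, 14.4, 34.2 and 0 at P0 and 153, 81.6, 52.6, 109 and 200 in adults, and H2-Eb1 at 2.91, 1.24, 13.7, 17.1 and 0 at P0 and 84.7, 35.1, 24.2, 46.7 and 95.7 in adults. Both groups were apart, but the adults spanned several fold and P0 library 5 had no read of either (log2 fold change 3.77, SE 0.64, and 3.45, SE 0.62). H2-Ab1 rose by 1.84, with adult library 2 at 33.3 inside the P0 range, and lost its call with adults 1 and 2 alone. Cd74, the invariant chain, was at 52.3, 53.5, 107, 95 and 152 at P0 and 118, 93, 102, 134 and 209 in adults, with overlap and no call (0.56, adjusted p = 0.118), though it was called without P0 library 5 (0.77) and with P0 libraries 1 to 3 alone (0.90, adjusted p = 0.0272). With P0 libraries 4 and 5 alone its log2 fold change was 0.06 (adjusted p = 0.904). Of class I, H2-K1, H2-D1 and the light chain B2m rose by 1.07, 0.98 and 0.63, and the nonclassical H2-T23 by 2.86. Class I genes are near copies of each other and the counting may have split their reads. B2m lost its call with adults 1 and 2 alone and with adults 1 and 3 alone.

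Class II promoters are known for a conserved X box ahead of a CCAAT-type Y box, read by the RFX and NF-Y factors under the control of CIITA. The windows below (RefSeq, GRCm38.p6) mark in capitals ATGATGC, the end of the X box, picked after these windows were read, and CCAAT, both searched on both strands. These 3 are shown as examples of rising class II genes that hold both motifs.
H2-Ob, chr17:34238655-34238954 (plus strand): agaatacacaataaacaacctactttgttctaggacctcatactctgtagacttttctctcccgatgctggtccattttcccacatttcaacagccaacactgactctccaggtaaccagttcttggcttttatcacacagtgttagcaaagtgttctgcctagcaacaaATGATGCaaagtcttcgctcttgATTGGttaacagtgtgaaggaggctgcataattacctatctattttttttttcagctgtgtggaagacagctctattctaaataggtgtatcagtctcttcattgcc
H2-DMb1, chr17:34152941-34153240 (plus strand): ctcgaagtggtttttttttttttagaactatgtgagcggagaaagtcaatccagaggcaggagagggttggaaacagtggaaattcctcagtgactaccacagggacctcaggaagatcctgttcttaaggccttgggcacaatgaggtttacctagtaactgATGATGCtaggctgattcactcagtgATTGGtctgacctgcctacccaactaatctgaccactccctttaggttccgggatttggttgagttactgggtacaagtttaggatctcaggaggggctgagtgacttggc
H2-Eb1, chr17:34305617-34305916 (plus strand): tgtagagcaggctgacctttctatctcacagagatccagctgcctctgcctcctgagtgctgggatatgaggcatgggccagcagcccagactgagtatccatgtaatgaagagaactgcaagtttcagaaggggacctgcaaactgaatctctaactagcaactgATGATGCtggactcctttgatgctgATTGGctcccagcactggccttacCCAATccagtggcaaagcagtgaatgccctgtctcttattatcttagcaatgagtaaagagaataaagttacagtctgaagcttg
ATGATGC stood in 6 of the 19 antigen presentation genes found in the table (31.6%), against 2.84% of all 27025 genes. The 6 were H2-DMb1, H2-DMb2, H2-Ob, H2-Eb1, H2-T23 and Psmb8, and the windows of H2-DMa, H2-Oa and H2-Aa, which rose, held none. It was picked from some of these windows, so its share describes the letters and nothing more. CCAAT stood in 16 of the 19 (84.2%).

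Of 36 interferon-stimulated genes tested 13 were higher, against 24.0% of all genes, 1 was lower and 22 were not called (median 0.49). In 6 of the 36 every adult library was above every P0 library, against 15.6% of all genes. Usp18, which restrains interferon signalling, was at 0, 0.622, 1.52, 7.08 and 0 at P0 and 25.1, 21.9, 17.3, 9.14 and 17.1 in adults. P0 library 4 was the highest at P0 and below each adult library (3.18, SE 0.44, adjusted p = 5.7e-06). Slfn8 rose by 2.33, the RNA sensor Ddx58 (RIG-I) by 1.78, Ifit3 by 2.75 and Samhd1, which depletes nucleotides, by 0.76. P0 library 4 held the highest P0 level of Ifit3 (24.2) and of the regulator Irf7 (39.5, against 12.8 to 20.4 in the others). Without it 19 members were higher, with P0 libraries 1 to 3 alone 21, and with P0 libraries 4 and 5 alone 8. In that last fit 2222 of the 12357 genes tested were called higher.

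Among Toll-like receptors and NF-kB components 13 of 30 rose and 4 fell (2 with adults 3 to 5 alone). Over all genes 24.0% rose and 27.5% fell. Cd14, the lipopolysaccharide co-receptor, was at 259, 302, 373, 317 and 316 at P0 and 1441, 2072, 1014, 1141 and 1049 in adults. All adults were above all P0 libraries (2.05, SE 0.16, adjusted p = 2.08e-09), and Tlr4, its signalling partner, rose by 1.22 and Tlr13 by 1.12. The inhibitor gene Nfkbie rose by 1.75, whereas its relatives Nfkbiz and Nfkbid fell by 2.50 and 1.79. The groups overlapped for Nfkbiz, with P0 library 1 at 93 and adult library 3 at 104. Cytokines and chemokines gave 8 higher and 13 lower of 28, beside the same shares of all genes. Ccl3, a chemokine for monocytes, was at 1432, 2515, 4862, 4477 and 6692 at P0 and 698, 833, 903, 846 and 588 in adults. P0 levels spread widely and all lay above the adults (-2.19, SE 0.30, adjusted p = 5.16e-06). Ccl2 fell by 1.87, Tnf by 1.67, Cxcl2 by 4.36 and Mif by 1.86. Cxcl2 spread widely at P0 (5.82, 52.9, 148, 48.4 and 336) and was at most 5.02 in adults. Il6 rose from 1.24–8.17 to 28–48.3 (3.06) and Il16 by 1.07.

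Genes that cell isolation can induce were high at both ages. Their summed level was 11935 to 46505 at P0 and 16173 to 33733 in adults, against 3733 to 4824 at E14. Of 26 tested 6 rose (2 with adults 1 and 2 alone), near the 24.0% of all genes, and 11 fell, against 27.5%. Fos was at 1169, 1903, 3299, 3712 and 3036 at P0 and 1601, 1159, 4267, 3166 and 2570 in adults, with overlap and no call (-0.07, adjusted p = 0.915). Dusp2, Atf3, Ier2 and Ier3 fell by 3.93, 2.79, 2.19 and 2.23, and varied among P0 libraries in the manner of Ccl3, lowest in P0 library 1 (211, 390, 781 and 231). The heat shock genes Hspa1a and Hspa1b, near-identical copies, were at 243, 617, 918, 522 and 97.8 and at 296, 965, 875, 472 and 93.7 in adults and at most 26 and 20.7 at P0. Both rose (4.87 and 7.44) with a wide spread over adults. The part of cell isolation in these differences was not tested.

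Lysosomal genes were split, with 6 of 32 higher and 16 lower, against 24.0% and 27.5% of all genes. Ctsb, the cathepsin B gene, was at 16337, 14466, 14692, 17235 and 13749 at P0 and 6193, 7959, 4610, 5065 and 4724 in adults, lower in every one (-1.45, SE 0.18, adjusted p = 9.65e-07). Cathepsin S went the other way: Ctss was at 7319, 7480, 7573, 11528 and 7292 at P0 and 17842, 23631, 13187, 14828 and 16072 in adults (1.05, SE 0.19, adjusted p = 0.00011), and Ctsh rose by 1.42. Ctsl fell by 0.88, the tetraspanin Cd63 by 1.82 and the glucuronidase Gusb by 1.51, while Ctsd was not called (0.13, adjusted p = 0.595). With adults 1 and 2 alone 8 members were lower. Among phagocytic receptors and bridging proteins 6 of 20 rose and 8 fell, against 24.0% and 27.5% of all genes. The receptor tyrosine kinase Mertk rose from 28.3–49 to 72.8–132 (1.38) while its ligand Gas6 fell from 1353–2028 to 308–386 (-2.20). The integrins Itgb5 and Itgam rose by 1.27 and 0.93, and the scavenger receptors Msr1 and Mrc1 fell by 2.74 and 4.77. Of complement genes 3 of 16 rose (5 without adult library 2) and 5 fell, shares near the 24.0% and 27.5% of all genes. C1qa rose by 0.56, a call lost with adults 1 and 3 alone, while C1qb and C1qc, of the same complex, were not called (0.26 and 0.22). C1qc passed the test with adults 1 and 2 alone (0.51, adjusted p = 0.0247). The integrin chain Itgb2 rose by 1.59. Cfb and C2, the proteases of the alternative and classical convertases, fell from 37.4–71.4 to 0–4.03 and from 20.7–47.1 to 0–2.63.

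The lists of purinergic genes, of ion channels, and of Siglecs and Fc receptors each held more members that rose than members that fell. Of purinergic receptors and enzymes 8 of 14 rose and 3 fell. The ectonucleotidase Entpd1 (CD39), which degrades ATP, was at 407, 408, 483, 474 and 431 at P0 and 1577, 1745, 1094, 1024 and 1022 in adults, well apart (1.52, SE 0.15, adjusted p = 5.99e-08). P2ry13 rose by 1.47 and the adenosine receptor Adora3 by 1.17, while the ATP-gated channel P2rx1 fell by 1.19. Of potassium channels and other ion channels 9 of 12 rose and 2 fell. Trpm2, a calcium channel opened by oxidative stress, was at 42.2, 39.8, 43.3, 34.2 and 38.5 at P0 and 203, 342, 255, 172 and 254 in adults (2.57, SE 0.17, adjusted p = 1.56e-10). The proton channel Hvcn1 rose by 1.48, Kcnj2 (Kir2.1) by 2.29, Kcnma1 by 2.12 and Kcnk6 by 1.01, and Kcnab2 fell by 2.76. Of Siglecs and Fc receptors 12 of 22 rose and 3 fell (5 without adult library 1). Siglece, an inhibitory sialic acid receptor, was at 0, 0, 0, 0.59 and 0 at P0 and 94, 60.5, 73.3, 57.9 and 76.6 in adults. A single read in P0 library 4 was all that was counted at birth (6.04, SE 0.25, adjusted p = 3.69e-13). The inhibitory receptors Lair1 and Fcgr2b rose by 1.61 and 1.62, and the neonatal Fc receptor Fcgrt fell by 1.72. With adults 1 and 2 alone 7 of the list were higher.

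Of 23 genes of the microRNA machinery 6 rose and 7 fell, shares near those of all genes. Tnrc6b, a partner of Argonaute, rose by 1.17, the microprocessor helicase Ddx17 by 1.24 and the uridylyl transferase Zcchc11 by 1.07. Drosha, the nuclease of the microprocessor, fell by 0.67 and Dis3l2, which degrades uridylated let-7 precursors, by 0.91.

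Among markers of other cells, the border macrophage, erythroid, neuronal and lymphocyte lists fell in most tested members. The other lists held members called in both directions. Over all genes 24.0% were called higher and 27.5% lower. Endothelial and mural markers were near these shares, and monocyte and neutrophil markers were below them. Border macrophage markers gave 0 higher and 10 lower of 14, and their sum was 1803 to 2297 at P0 and 567 to 809 in adults. Mrc1 was at 432, 582, 556, 263 and 459 at P0 and 12.2, 7.9, 29.3, 17.3 and 16.1 in adults, and Lyve1, Pf4, F13a1 and Cd163 fell by 4.93, 4.77, 4.58 and 3.19. None of these was above 29.3 in any adult library, so most of the adult sum lay in members not named here. Erythroid markers gave 7 lower of 7, with sums of 11589 to 47877 and 47.4 to 1792. Hba-a1 was at 5548, 5650, 5759, 2346 and 13537 at P0, and Hba-a1 and Hbb-b1, which share reads with their copies, fell by 6.23 and 6.16. Hba-a2 had the same adult levels as Hba-a1, so reads shared by copies enter the sum and the count of 7 more than once. The erythropoietin receptor Epor fell by 5.04. Neuronal markers gave 11 lower and 0 higher of 12, with sums of 114 to 205 and 9.65 to 14.7. Sox11 was at 52.3, 41.1, 46.4, 46 and 82.9 at P0 and at 0 in all adults (at least 20-fold lower, from the limit of 3 reads per library), and Stmn2 fell by 3.71. Astrocyte and radial glia markers gave 1 higher and 4 lower of 8: Vim and Nes fell by 2.35 and 3.20, and the glutamate transporter gene Slc1a3 rose from 25.5–53.7 to 267–693. Gfap and Aqp4 were at or near 0 at both ages. Oligodendrocyte markers gave 3 higher and 2 lower of 7. Mag and Cnp rose by 1.10 and 0.83, Mbp was not called (0.31), and Mog and Mobp were at or near 0. Endothelial and mural markers gave 1 higher and 1 lower of 4, with Cldn5 near 0 at both ages. Lymphocyte markers gave 2 lower of 2, among them Cd79b (-1.15), with Cd79a at 0 throughout. Monocyte and neutrophil markers gave 2 higher and 1 lower of 13 (6 higher with adults 1 and 2 alone), with sums of 177 to 573 and 847 to 2331. Csf3r made up most of the sum in adult libraries 2 to 5 but not in library 1 (775 of 2331). In adult libraries 3 to 5 Csf3r was 837, 921 and 792 of sums of 888, 971 and 847. At P0 Csf3r was 185, 140, 173, 151 and 92.2 of sums of 289, 271, 573, 437 and 177. The higher sums of adult libraries 3 to 5 thus lay in Csf3r. It was at 138 to 171 at E14. The chemokine receptor Ccr2 rose from 0–5.31 to 0.877–27.2 and lost its call with adults 1 and 2 alone, and Cxcr2 fell from 37.2–106 to 0 in all adults (at least 24.7-fold). The granule genes Ngp and S100a8 were at 391, 63.2, 4.31, 0 and 2.02 and 123, 13.2, 4.31, 1.02 and 0 in adults, concentrated in adult library 1. The part of other cells in the falls of perinatal-state, phagocytic, complement and oncofetal genes given above was not tested.

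**Figure D4:**
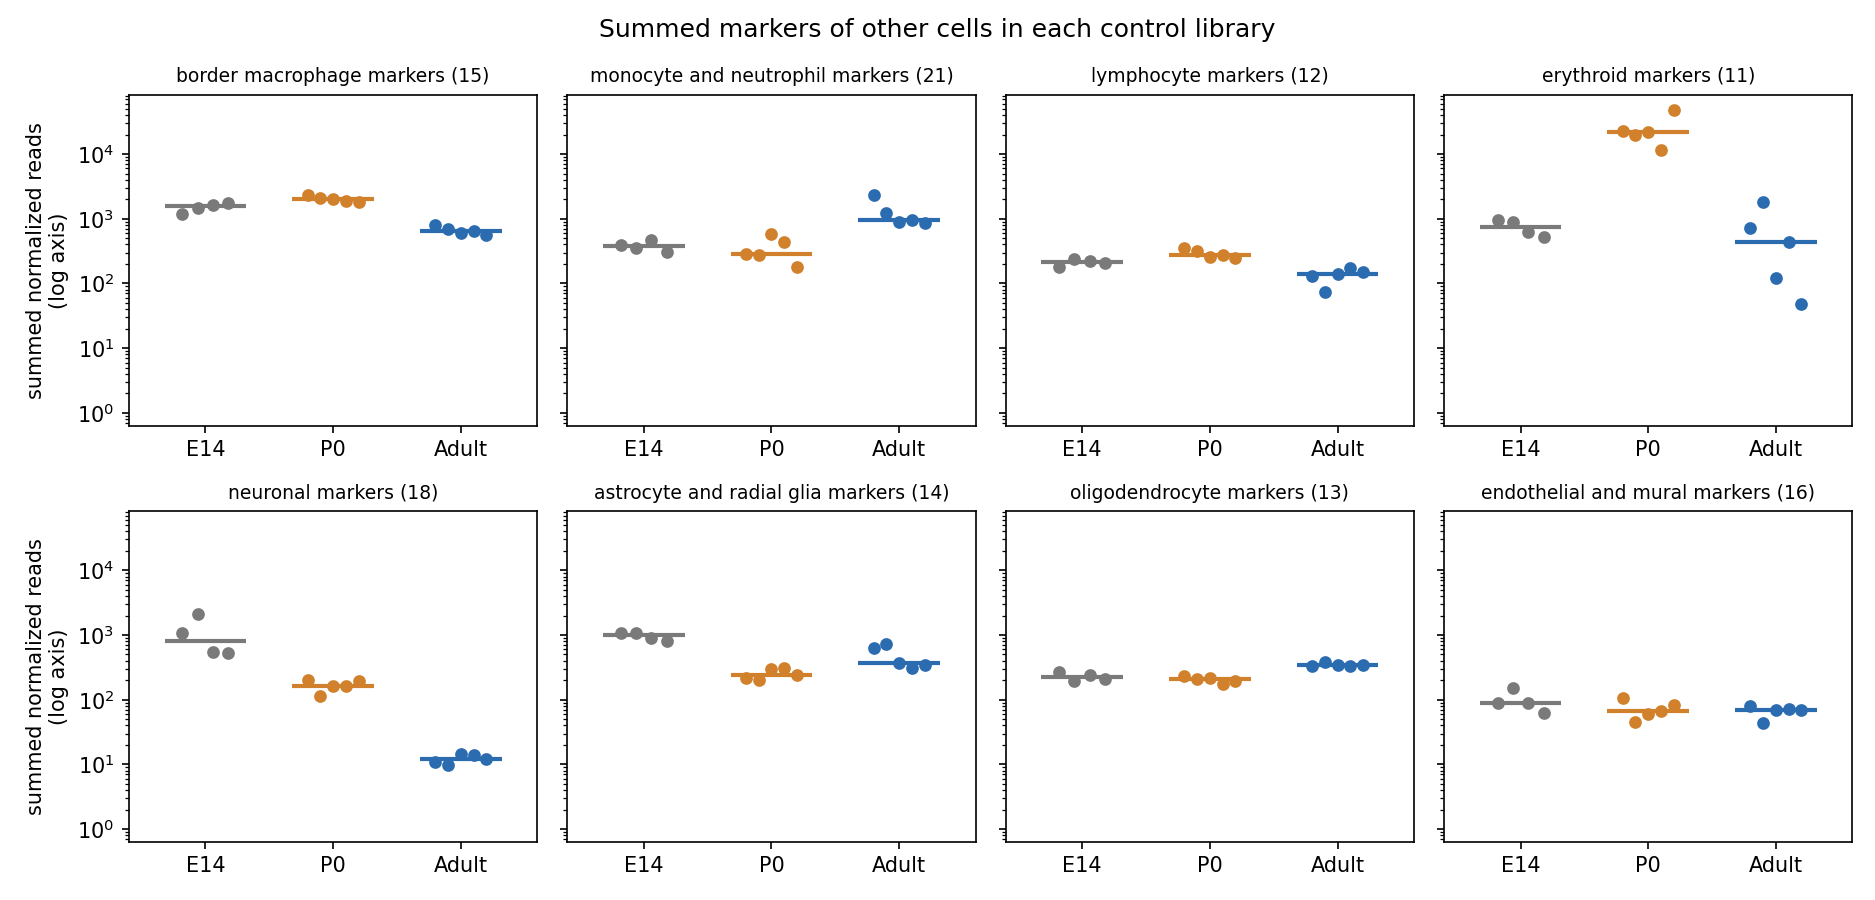
The y axis (log scale, shared by all panels) gives the summed level of each marker list (number of genes in parentheses), points are single control libraries and bars group medians. Border macrophage, erythroid and neuronal sums are lower in all 5 adults than in all 5 P0 libraries, and monocyte and neutrophil sums are higher. Csf3r makes up most of the monocyte and neutrophil sum in adult libraries 2 to 5.

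The step after birth was compared with the step before it by the contrast (adult minus P0) minus (P0 minus E14) in the same fit. This contrast was positive in 15.7% and negative in 16% of genes tested. Both steps share the P0 libraries, and the E14 cells had another gate, so age and gate cannot be told apart before birth. Antigen presentation genes had 20 positive members and 0 negative of 24, and interferon-stimulated genes 26 positive and 0 negative of 36. Their mean log2(level + 1), relative to P0, was 0.57 at E14 and 1.43 in adults for antigen presentation, and 1.87 and 0.57 for the interferon-stimulated genes. Usp18 was at 33.4 to 42.7 at E14, against 0 to 7.08 at P0 and 9.14 to 25.1 in adults (step contrast 7.40, SE 0.79, adjusted p = 8.56e-07). Siglece was at 23.4 to 33.4 at E14 (step contrast 10.74, SE 0.44, adjusted p = 2.14e-12) and Klk8 at 55.6 to 64.5 (step contrast 7.90, SE 0.37, adjusted p = 1.64e-11). For these 3 genes the P0 libraries were the lowest of the 3 ages.

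The contrast was negative in 19 of 26 genes of the dissociation list (2 positive), whose mean relative to P0 was -2.75 at E14 and within the P0 range in adults, and in 12 of 28 cytokines and chemokines (7 positive). Ccl3 was at 328 to 758 at E14, below every P0 library (step contrast -4.90, SE 0.54, adjusted p = 1.22e-06), and Cyr61 at 10.1 to 35.1 (-8.48, SE 0.74, adjusted p = 7.62e-08). Crybb1 was at 577 to 765 at E14 and was thus highest at birth (-2.95, SE 0.33, adjusted p = 1.53e-06). Mitotic genes had 35 negative members of 35. Their mean was 0.66 above P0 at E14 and 4.14 below it in adults, so the fall after birth was the larger one. Mki67 was at 272 to 398 at E14, between P0 library 4, which was lower, and the highest P0 library (-5.13, SE 0.54, adjusted p = 8.23e-07). Among homeostatic genes 14 of 30 were positive and 4 negative. Tmem119 was at 915 to 1613 at E14, overlapping P0, and its rise lay in the step after birth (before birth 0.01, adjusted p = 0.973; step contrast 2.76, SE 0.31, adjusted p = 1.59e-06). Sall1 rose in both steps (0.66 before birth, adjusted p = 0.000313), and its step contrast was not called (-0.17, SE 0.19, adjusted p = 0.537).

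**Figure D5:**
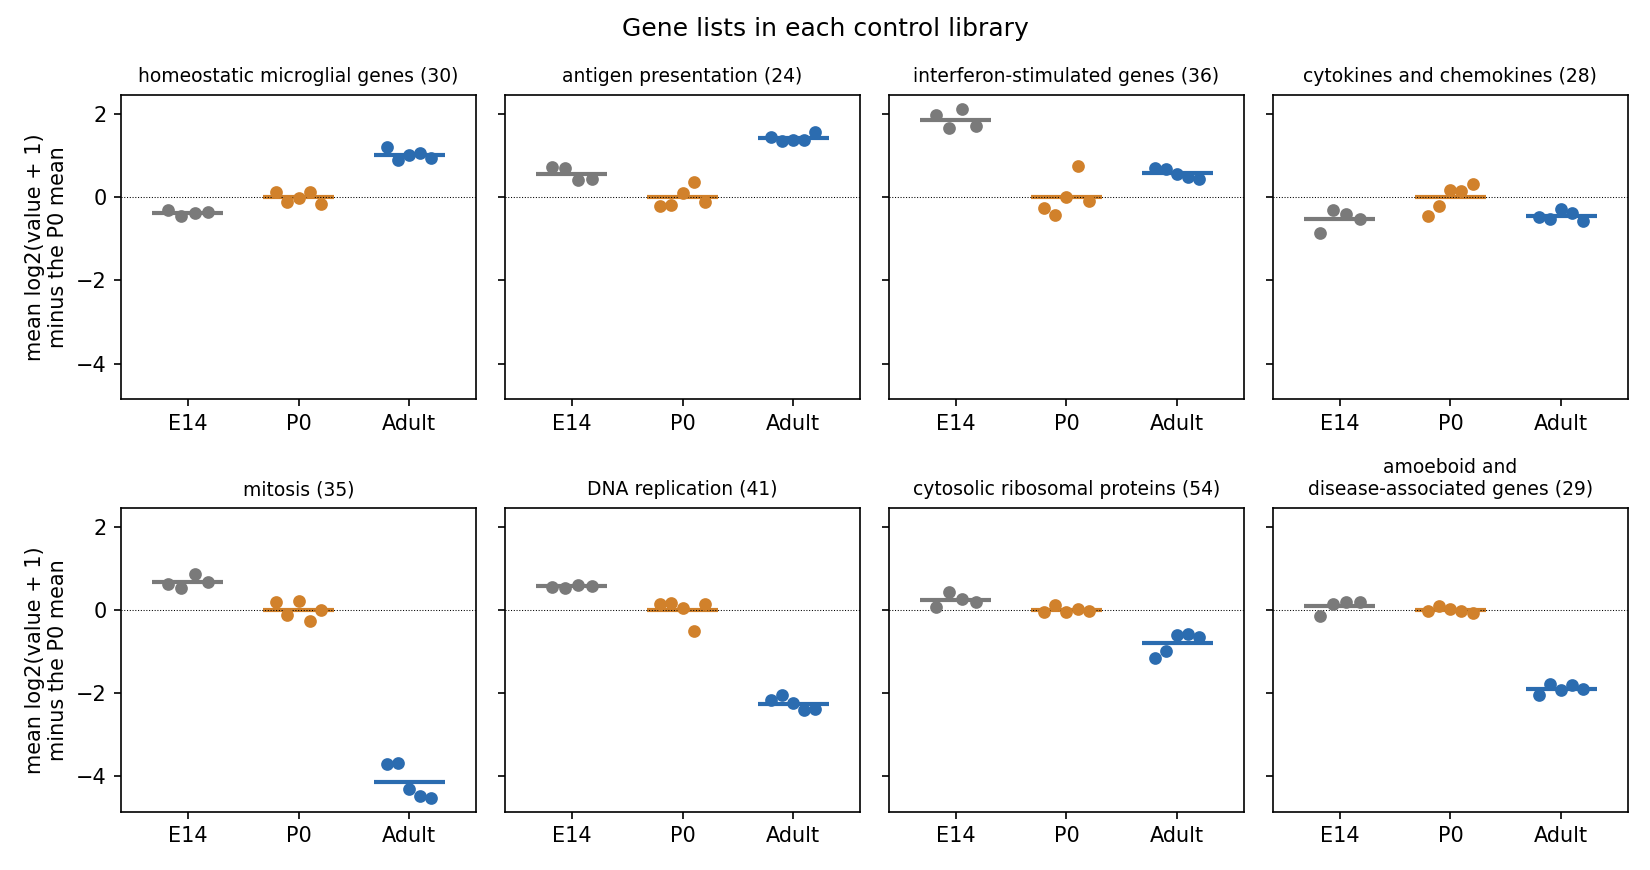
Each point is 1 control library and gives the mean over a list's tested members (number in parentheses) of log2(level + 1), minus the mean of the P0 libraries; bars are group means. Homeostatic and mitotic lists move mainly between P0 and adult, the interferon list is highest at E14 (1.87), and the dotted line marks the P0 mean.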

How the data were processed

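The authors deposited 1 table of gene-level signal for the developmental samples, in which each value is a read count times 1 factor per library. Whole reads came back within 0.1 read for all values of every library. The submitters' processing notes name bcl2fastq, HISAT 0.1.5, SAMtools, HOMER, DESeq2 and build mm9, without role or order, and whether counting used strand is not given in the sources used here. Levels were analysed as log2(level + 1) with limma 3.58.1 in R 4.3.3, with a mean per group over 14 control libraries (E14, P0 and adult) and a trend in the variance. Genes with a level of at least 1 in at least 5 of the 10 P0 and adult libraries were tested, and p-values were adjusted by Benjamini-Hochberg. The procedure was tested on simulated data. Alternatives were edgeR 4.0.16 and DESeq2 1.42.0 on the recovered reads, other pseudocounts, no filter, left-out libraries, only the groups compared, a replicate block and P0 libraries 1 to 3 or 4 and 5, which the labels assign to different figures. Fits with subsets of the adult libraries and with sex (Xist and Y-linked genes) as a covariate were added after seeing the data.

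The members and the 34 gene lists were chosen with earlier results of these data known. Named genes were 7 anchors, the 15 that rose most and the 15 that fell most (called, groups apart, level at or above the median gene), and up to 5 members per list and direction with the smallest p, plus abundant markers of other cells. Chosen after their values were seen were Trem2, Mef2c, Fcrls, Gins3, Gins4, Ctsd, C1qb, C1qc, Tnf, Cxcl2, Irf7, H2-Eb1, H2-Aa, H2-Ab1, H2-DMb2, Psmb8, H2-K1, H2-D1, B2m, Cd74, Fos, S100a8, Ngp and Mbp, and the promoters and motifs shown. Intervals and limits cover counting error only. Promoters were taken from RefSeq (GRCm38.p6) by symbol, and no coordinate of mm9 was used.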

Additional observations from a re-analysis of the deposited data

Results flagged for a closer look

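Among 390 groups of 5 libraries (195 named genes at 2 ages), 34 held 1 library far from the other 4 relative to the group's range, where chance alone is set to mark about 1 in 20 groups; the same libraries recur in them. P0 library 4 was the highest of its group for Thrsp (4.72 against 0 to 0.622), Mlph (13 against 0 to 1.52), Tgm2 (9.44 against 0 to 1.52), Ctss (11528 against 7292 to 7573) and Usp18 (7.08 against 0 to 1.52). It was also the highest for Ifit3 (24.2 against 0 to 5.82), Irf7 (39.5 against 12.8 to 20.4), H2-T23 (95.6 against 27.4 to 39.5), Hspa1b (20.7 against 0 to 2.28) and Siglece (0.59 against 0). It was also the highest for Lair1 (589 against 412 to 448), Fcgr2b (251 against 97.4 to 128) and Cd163 (74.9 against 26.2 to 35.7). Adult library 2 was the highest of its group for Slco2b1 (3287 against 2826 to 2947), Cst7 (92.1 against 46.4 to 56.1), Tk1 (14.9 against 7.77 to 9.33), Cdk4 (244 against 154 to 174) and Cd63 (452 against 251 to 284). It was also the highest for H2-DMa (2033 against 702 to 1048). Adult library 1 was the highest of its group for Igf2bp3 (1.44 against 0), S100a8 (123 against 0 to 13.2) and Ngp (391 against 0 to 63.2). The flagged values of Igf2bp3 and Siglece were under 3 reads, which cannot be told from 0. The share of 1 in 20 was not checked for levels near 0. P0 library 1 was the highest of its group for Sall3 (195 against 140 to 155), Gpx3 (983 against 645 to 731) and Itgb5 (1351 against 708 to 788). Adult library 5 was the lowest of its group for Adgrg1 (1002 against 1298 to 1388) and Gpi1 (181 against 228 to 240). Adult library 1 was the lowest of its group for Siglech (2685 against 3338 to 3556). Adult library 4 was the highest of its group for Igf1 (6.09 against 0.863 to 2.15). P0 library 1 was the lowest of its group for Lin28b (1.45 against 8.85 to 11.8). P0 library 3 was the highest of its group for Csf2ra (295 against 224 to 240). P0 library 4 was the lowest of its group for Gins2 (90.3 against 111 to 119). P0 library 5 was the highest of its group for Sox11 (82.9 against 41.1 to 52.3). P0 library 5 was the lowest of its group for Tlr4 (61.9 against 101 to 111).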

How the results depend on the processing

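The count of genes called was 6359 and stayed within 1.5 times of that under every alternative, from 4756 (P0 libraries 4 and 5 alone) to 6461 (no filter). Leaving out 1 library at a time gave 5898 to 6355 genes called over all 14 control libraries. Leaving out 1 P0 or adult library gave 5898 to 6289 genes called, 2709 to 2925 higher and 3189 to 3364 lower, and leaving out 1 of the 14 gave 3242 to 3975 for the difference between the steps after and before birth. edgeR called 6194 genes, DESeq2 6110 and the fit of only the groups compared 6012. The step count was 3914 and moved to 2078 with only P0 replicates 4 and 5. Same-numbered P0 and adult libraries did not deviate together (correlations -0.127 to 0.0974), so the numbers were not taken to pair them, and the fit with the replicate block called 5869 genes, 2725 higher and 3144 lower. The block took Csf1r (adjusted p = 0.0602), C1qa (0.0701) and Spi1 (0.0562) out of the limma calls and brought Cd74 in (0.0187). The log2 fold change of Cx3cr1 reversed to 0.81 with adults 1 and 3 only, and was -1.64 without adult library 1 and -1.69 without adult library 3, -0.66 without adult library 2, and -0.31 to -0.32 with edgeR and DESeq2. B2m, Drosha, Rb1, C1qa, Spi1 and Egr1 lost their calls with P0 libraries 4 and 5 alone. In each of these the cause was not tested. A level under 3 reads (1.77 to 4.36 at P0, 2.15 to 3.05 in adults) cannot be told from 0.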
